A study of Arabidopsis thaliana with 47 samples.

Results

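A group of 97 of the 22746 probe sets tested read lower in Arabidopsis root protoplasts given inorganic nitrogen (N) than in protoplasts given potassium chloride, both in cells that carried the transcription factor bZIP1 and in cells that carried the empty vector. They were chosen by their measured values. The N effect is the mean of the groups with N minus the mean of the groups with KCl, averaged over both dexamethasone (DEX) states. A member had an N effect of at most -0.35 on the log2 scale in both vectors in the presence of cycloheximide (CHX), a DEX effect between -0.25 and 0.25 in the bZIP1 cells with CHX, and a mean log2 level of at least 4 over the arrays of both of these arms. An effect of -0.35 is a level 1.27 times lower. Of the 97 members, 48 were matched to 1 gene and are called by its name, and the other 49 are called by their probe set or are not named.

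Nitrate is both a nutrient and a signal for plant roots. Its supply is known to switch on, within minutes to hours, genes for its own transport and reduction, and other transcripts fall in the same cells. bZIP1 is a leucine-zipper transcription factor linked to sugar, energy and nitrogen status. DEX sends a bZIP1 fusion into the nucleus. The members described here changed little with DEX in the bZIP1 cells with CHX, because the choice required it.

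Transcripts were measured on 47 Affymetrix ATH1 arrays in 12 groups. All cells were protoplasts from roots of Col-0 seedlings aged 10 days, transfected with a plasmid that carries a red fluorescent marker, and the fluorescent cells were taken. The bZIP1 plasmid drives the GR::bZIP1 fusion, bZIP1 joined to a glucocorticoid receptor domain, from the 35S promoter, so these cells overexpress it transiently. The control plasmid holds the GR domain without bZIP1. Cells with N received KNO3 and NH4NO3 at 20 mM each over 2 h, and the others 20 mM KCl, so nitrate and ammonium were supplied together. CHX, which blocks protein synthesis, was set against its solvent, and DEX was 10 µM in ethanol against ethanol alone. The bZIP1 arm with CHX had 6 arrays in each of its 4 groups (N with DEX, N without DEX, KCl with DEX, KCl without DEX), from 2 preparations called Bioreps of 3 treatment replicates each. The empty-vector arm with CHX had 3 arrays per group but 2 for KCl with DEX, and the bZIP1 arm without CHX had 3 per group. Every arm was therefore the same comparison of N and DEX, and no empty-vector arm without CHX was analysed here.

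The deposited values are log2 signals whose lowest value was 2.298 in the bZIP1 arm with CHX, 2.287 in the empty-vector arm and 2.303 in the bZIP1 arm without CHX, which shows that the arms were summarised separately, so levels of different arms are not on 1 scale. Values within 0.1 of that floor made up 40.2% to 41.8% of each array. Arrays of 1 group correlated at 0.978 to 0.997. Among root markers with a named probe set, the endodermal kinases AT1G61590 and GSO1 were above the floor on all arrays, while the root hair expansins EXPA7 and EXPA18 and the outer-layer genes AT1G62500 and AT1G09750 averaged 2.29 to 2.36. RCA, a leaf gene, averaged 2.68 to 2.99. No probe set named bZIP1 was available, so the transgene itself was not checked.

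The choosing values describe a modest shift shared by both vectors. In the bZIP1 arm with CHX, N effects of the 97 members ran between -1.38 and -0.35 with a median of -0.49. In the empty-vector arm they ran between -1.15 and -0.35 with a median of -0.51, while the median over all 22746 probe sets was 0.0 in both. Of the members, 56 had the lower N effect in the empty vector. The limma test with Benjamini-Hochberg adjustment marked 46 of the 97 in the bZIP1 arm, where 1.16% of all probe sets were lower with N. In the empty-vector arm it marked 1 of the 97, where 0.0615% were lower. The choice used these values and favours such calls, so the counts are no support for it. Because the cells were pooled for RNA, fewer cells of a type and less RNA per cell cannot be told apart in any of these values.

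**Figure D1:**
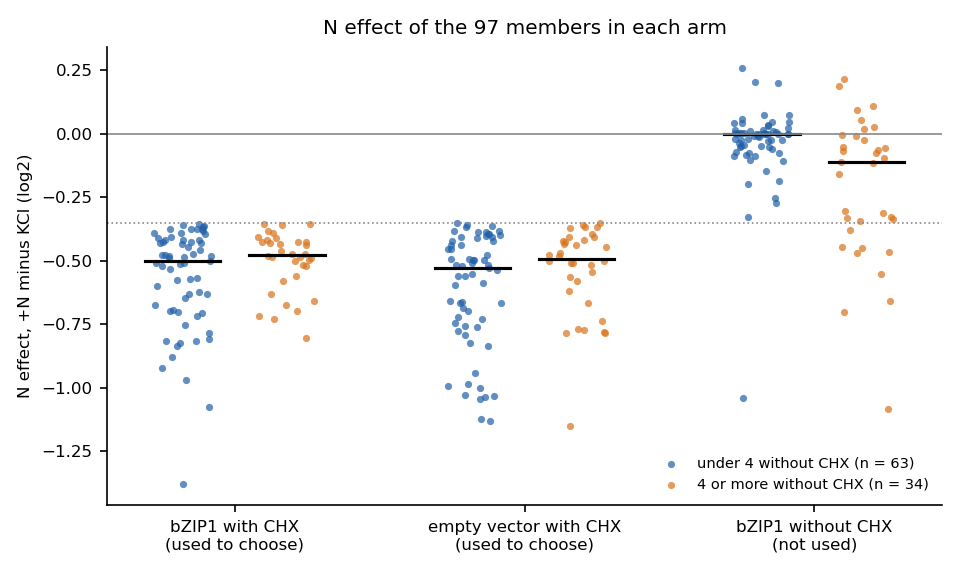
N effect (N minus KCl, log2, vertical axis) of each of the 97 members in the 3 arms, split into the 63 members whose mean level without CHX was under 4 (blue) and the 34 at 4 or more (orange). Black lines are medians, and the dotted line is the -0.35 used for choosing. In the 2 arms with CHX all points lie at or below the dotted line by choice, and without CHX the median of the blue points is 0.00 and that of the orange points -0.11.

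Parts of the same arrays give the values behind the choice in more detail, and since the choice used these arrays, they are no further support for it. N effects were below 0 in both Bioreps for all 97, at or under -0.35 in Biorep 1 for 88, in Biorep 2 for 73 and in both for 64. All 97 were below 0 both with and without DEX in the bZIP1 arm with CHX, and 94 were in the empty-vector arm. Separation between single arrays was rare with 12 arrays a side. The highest of the 12 N arrays lay below the lowest of the 12 KCl arrays for 1 member, 248968_at, in the bZIP1 arm (0.0044% of all probe sets), and in the empty-vector arm 13 members were separated in this way (0.374% of all probe sets), among them AT1G05670, the subtilase SBT5.4, the sugar transporter SWEET1 and the ribosomal protein gene AT3G10610, the last 2 chosen after their values were seen. The choice favours members so separated.

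The median over the 97 members, taken on each array, was 5.64 to 5.92 on the 12 N arrays and 6.10 to 6.57 on the 12 KCl arrays of the bZIP1 arm with CHX, a separation that the choice of members on these arrays brings about. In the empty-vector arm it was 6.01 to 6.65 on the 6 N arrays and 6.60 to 7.15 on the 5 KCl arrays. The share of values at the floor overlapped, at 40.6% to 41.8% on N arrays and 40.5% to 41.7% on KCl arrays of the bZIP1 arm with CHX. The log2 difference between the 3′ and 5′ GAPDH control probe sets, a sign of RNA integrity and amplification, was 0.41 to 0.92 on N arrays and 0.29 to 0.53 on KCl arrays of the empty-vector arm, and 0.55 to 1.58 on N arrays and 0.40 to 1.59 on KCl arrays of the bZIP1 arm with CHX. Without CHX it was higher, at 1.80 to 2.19 over the 12 arrays of the bZIP1 arm. The same difference for actin was larger, at 3.27 to 4.03 in the bZIP1 arm with CHX and 4.74 to 5.11 in the empty-vector arm. In the bZIP1 arm without CHX, actin gave 4.23 to 4.94. The part of these differences in the members' N effects, or in their levels without CHX, was not tested.

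AT2G18180, which encodes a protein of the Sec14 family of lipid transfer proteins, had the lowest N effect averaged over both vectors. In the bZIP1 arm with CHX its lowest, median and highest levels were 4.92, 5.56 and 6.14 on the 12 N arrays, against 5.59, 6.87 and 7.94 on the 12 KCl arrays. In the empty-vector arm it read 5.36, 6.04 and 6.53 with N and DEX and 6.53, 7.40 and 7.47 with N alone, against 6.70 and 7.58 with KCl and DEX and 7.60, 8.36 and 8.22 with KCl alone. The N and KCl arrays overlapped in both arms, and its N effects were -1.38 ± 0.17 with bZIP1 and -1.05 ± 0.31 with the empty vector (log2 ± SE of the fit). AT2G18190, its next neighbour in the TAIR10.1 gene order, is also a member and encodes an ATPase of the AAA family. AT2G18190 averaged 8.81 ± 0.44 on the N arrays against 9.44 ± 0.63 on the KCl arrays with bZIP1 (SD, n = 12 each), and 10.00 ± 0.52 (n = 6) against 10.45 ± 0.32 (n = 5) with the empty vector. It was the only pair of adjacent genes among the 48 named members.

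NRPD7, a subunit of the plant RNA polymerase IV that makes silencing RNAs, read 6.06, 6.71 and 7.54 (lowest, median, highest) on N arrays and 6.83, 7.60 and 8.56 on KCl arrays with bZIP1. With the empty vector, NRPD7 averaged 7.29 ± 0.76 (SD, n = 6) with N and 8.36 ± 0.49 (n = 5) with KCl. AT1G80850, a member of the DNA glycosylase family of repair enzymes, read 8.57 to 9.37 with N and 9.22 to 9.98 with KCl in the bZIP1 arm, and 8.70 to 9.87 with N and 9.78 to 10.67 with KCl in the empty-vector arm. In both arms its ranges overlapped at their ends. AT4G26680, a pentatricopeptide repeat protein of a family that processes organelle RNA, had N effects of -0.70 ± 0.20 with bZIP1 and -1.03 ± 0.27 with the empty vector.

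AT3G19020, a leucine-rich repeat extensin of the cell wall, averaged 8.13 ± 0.81 with N and 8.76 ± 0.79 with KCl in the bZIP1 arm (SD, n = 12 each), a difference smaller than the spread, and its N effect was -0.62 ± 0.23. SBT5.4, a secreted protease of the subtilase family, read 5.71 to 6.09 on the N arrays and 6.33 to 6.65 on the KCl arrays of the empty-vector arm, which did not overlap, and 3.24 to 5.15 with N and 3.88 to 6.21 with KCl in the bZIP1 arm, which did. AT2G43610, of the chitinase family and picked after its values were seen, had N effects of -0.67 with bZIP1 and -0.48 with the empty vector. AT5G66390, the class III peroxidase also called PRX72, had N effects of -0.43 ± 0.09 with bZIP1 and -0.51 ± 0.18 with the empty vector and is taken up again with DEX.

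AT1G03990, a long-chain fatty alcohol oxidase, had N effects of -0.73 ± 0.12 with bZIP1 and -0.77 ± 0.23 with the empty vector. For AT1G50590, of the pirin family, they were -0.97 ± 0.17 with bZIP1 and -0.69 ± 0.30 with the empty vector. AT5G39560, an F-box protein with kelch repeats, read 3.24 to 5.44 with N and 4.31 to 5.72 with KCl in the bZIP1 arm with CHX, where the lowest value was 2.298. AT3G48080, one of the EDS1 genes of plant immunity, had N effects of -0.57 ± 0.18 with bZIP1 and -0.70 ± 0.22 with the empty vector. AT2G31790, a glycosyltransferase of the family that finishes glucosinolates, had -0.43 ± 0.15 with bZIP1 and -0.82 ± 0.21 with the empty vector. The 4 other named members among the 15 lowest, AT2G41120, AT1G05670, AT1G17300 and AT5G05220, had N effects of -0.84 to -0.72 with bZIP1 and -1.12 to -0.50 with the empty vector.

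Members with N effects nearer to the limit included transport and chaperone genes, named here after their values were seen. SWEET1 had N effects of -0.42 with bZIP1 and -0.54 with the empty vector. MBAC1, a mitochondrial carrier of basic amino acids, had -0.66 with bZIP1 and -0.51 with the empty vector, and AT3G56200, of an amino acid transporter family, had -0.37 with bZIP1 and -0.59 with the empty vector. Both chaperone genes were close to -0.5 in each vector: Fes1B, an exchange factor of Hsp70, had -0.49 with bZIP1 and -0.53 with the empty vector, and CRT1b, a calreticulin that folds glycoproteins in the endoplasmic reticulum, had -0.49 with bZIP1 and -0.50 with the empty vector.

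Just inside the limit of -0.35 were 3 members. AT4G34400 had N effects of -0.389 with bZIP1 and -0.351 with the empty vector, AT1G10260 had -0.519 with bZIP1 and -0.352 with the empty vector, and AT5G45480 had -0.354 with bZIP1 and -0.499 with the empty vector. Just outside, 249227_at had -0.35 with bZIP1, short of the limit before rounding, and -0.707 with the empty vector. AT3G07150 had -0.349 with bZIP1 and -0.51 with the empty vector, and 267338_at had -0.371 with bZIP1 and -0.344 with the empty vector.

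**Figure D2:**
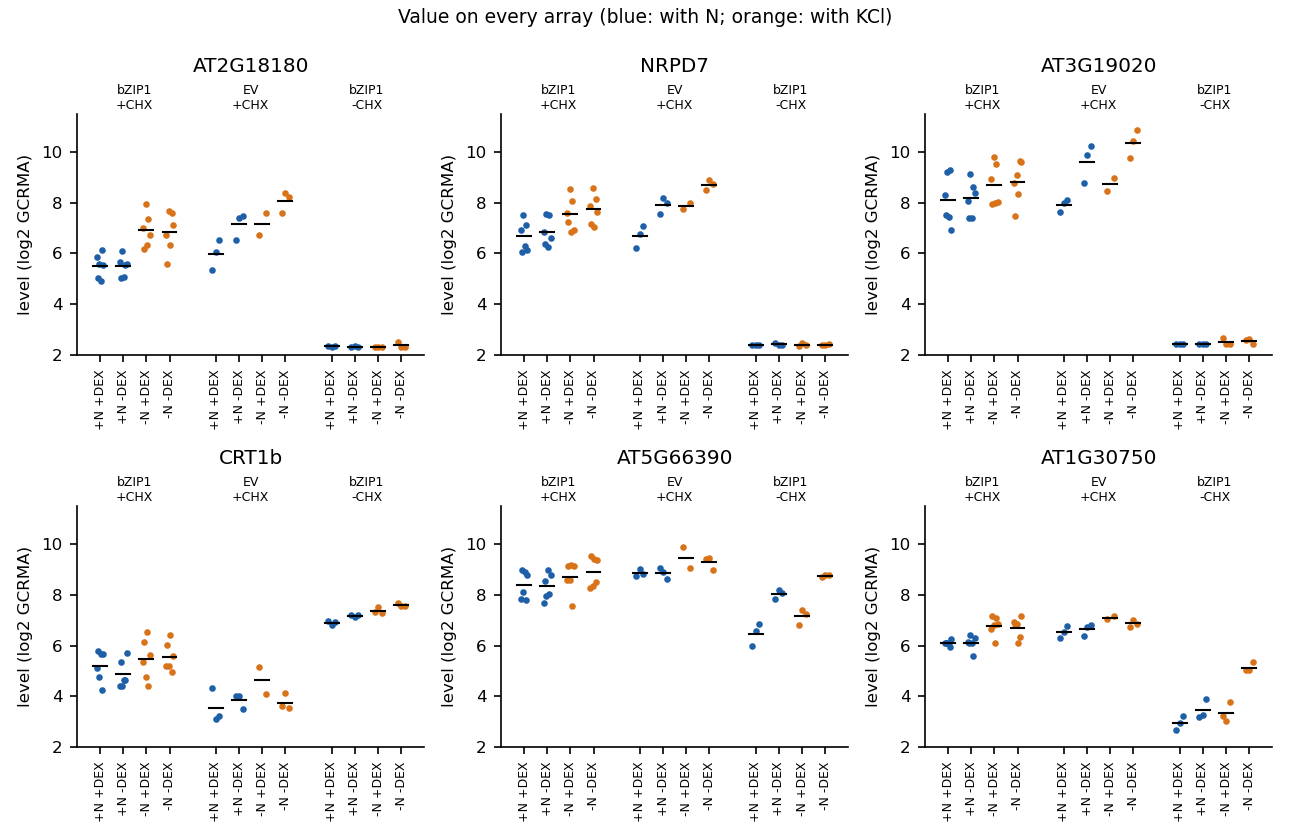
Level (log2 GCRMA value, vertical axis) of 6 members on every array, in the 4 groups of each arm, with N in blue and KCl in orange and group means as black lines. AT2G18180, NRPD7 and AT3G19020 lie between 4.92 and 10.86 with CHX and no higher than 2.655 without it. CRT1b, AT5G66390 and AT1G30750 keep levels above the floor without CHX, and there the mean with DEX lies below that without DEX, both in N and in KCl.

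What most members shared beyond the choice was a low level in the bZIP1 arm without CHX, which the choice did not use. There 63 of the 97 (64.9%) averaged under 4, 24 averaged within 0.1 of the floor, and 14 lay at the floor on all 12 arrays. Among the 9430 probe sets with a mean of at least 4 over both CHX arms, from which the members come, 11.4% averaged under 4 without CHX. A mirror set, chosen by the same rule with the sign of the N effect turned, held 61 probe sets raised by N in both vectors, of which 1 (1.64%) averaged under 4 without CHX. The low level was not confined to members. Among the 9430, 646 fell with DEX in the bZIP1 arm with CHX by the limma test, and 207 of these averaged under 4 without CHX. Of the 654 that rose, 84 did. The median member level was 6.05 with bZIP1 and CHX and 6.61 with the empty vector and CHX, against 3.18 with bZIP1 without CHX, while for the 9430 probe sets the medians were 6.58, 6.68 and 6.58. CHX cannot be told apart here from the preparation and from the separate summarisation of the arms.

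**Figure D3:**
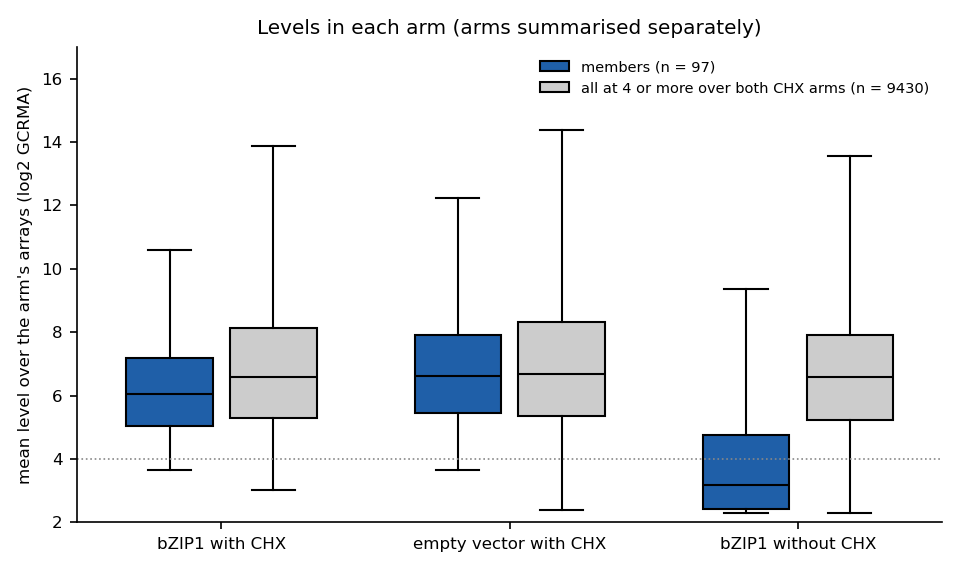
Mean level over an arm's arrays (log2 GCRMA value, vertical axis) of the 97 members (blue) and of all 9430 probe sets with a mean of at least 4 over both CHX arms (grey). Boxes are quartiles, lines medians and whiskers the lowest and highest values, and the dotted line marks 4. The members' median is 3.18 without CHX against 6.58 for all 9430, while in both arms with CHX the boxes overlap.

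Single genes show how far apart the arms were. AT2G18180 read 2.303 to 2.489 on the 12 arrays without CHX, 11 of them at the floor. NRPD7 read 2.35 to 2.45 and AT3G19020 2.41 to 2.655 on the same arrays. AT1G05575, singled out after its values were seen, averaged 9.89 ± 0.33 with N and 10.35 ± 0.21 with KCl in the bZIP1 arm with CHX (SD, n = 12 each), and 11.09 ± 0.20 (n = 6) and 11.46 ± 0.10 (n = 5) in the empty-vector arm, while without CHX its highest value on any array was 2.48. AT2G31790 and AT5G39560 were at the floor on all 12 arrays without CHX. A few members ran the other way, and CRT1b averaged 5.27 with bZIP1 and CHX and 3.88 with the empty vector and CHX, against 7.26 without CHX, and AT3G10610 averaged 5.03 with bZIP1 and CHX and 5.72 with the empty vector and CHX, against 6.305 without CHX.

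Low level without CHX and the N effect with CHX also went together among probe sets that are not members. Of the 9430 probe sets, 1079 averaged under 4 without CHX, and of these 123 (11.4%) fell and 9 rose with N in the bZIP1 arm with CHX by the limma test. Of the 8351 at 4 or more without CHX, 128 (1.53%) fell and 173 rose. Median N effects were -0.17 for the 1079 and 0.04 for the 8351 with bZIP1, and -0.10 and 0.05 with the empty vector. These counts include the members. With the members left out, 99 of 1016 probe sets under 4 without CHX (9.74%) fell with N and 9 rose, and 106 of 8317 at 4 or more (1.27%) fell and 173 rose. Median N effects were then -0.148 for the 1016 and 0.035 for the 8317 with bZIP1, and -0.08 for the 1016 and 0.05 for the 8317 with the empty vector. The link was not confined to N. With DEX in the bZIP1 arm with CHX, 207 of the 1016 (20.4%) fell and 84 (8.27%) rose by the limma test. Of the 8317, 439 (5.28%) fell and 570 (6.85%) rose.

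The bZIP1 arm without CHX gives the independent look at N, since none of its arrays entered the choice. CRT1b fell there. It read 6.96, 6.82 and 6.92 with N and DEX and 7.19, 7.13 and 7.22 with N alone, against 7.33, 7.50 and 7.27 with KCl and DEX and 7.67, 7.55 and 7.56 with KCl alone, where "alone" means without DEX. All 6 N arrays lay below all 6 KCl arrays (0.154% of all probe sets). Its N effect was -0.44 ± 0.05 (limma adjusted p = 0.0234 over 22746 probe sets). This is about the size it had with CHX when averaged over DEX, though with the empty vector it did not fall without DEX. It was the 1 member of 97 that passed, where 0.044% of all probe sets were lower with N, and no member was higher. Without treatment replicate 1, 2 or 3 the adjusted p was 0.345, 0.137 or 0.267, so this call rests on all 12 arrays. With treatment replicate entered as a block it was 0.058 (limma), so the call also rests on leaving replicates unblocked.

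The other members gave no call for N without CHX in the main fit. At an unadjusted limma p under 0.05, 16 of the 97 were lower with N and 0 higher, where 3.56% of all probe sets were lower. For the 63 members under 4 without CHX, N effects ran between -1.04 and 0.26 with a median of 0.00, and probe sets at the floor cannot show an effect. Of the 34 at 4 or more, 27 had an N effect below 0, with a median of -0.11 against -0.01 over the 8351 probe sets at that level. AT1G30750 had an N effect of -1.04 ± 0.18 (adjusted p = 0.109), and AT5G66390 one of -0.70 ± 0.16 (adjusted p = 0.258). With treatment replicate entered as a block, AT1G30750 passed (limma adjusted p = 0.03). AT3G10610 had -0.55, and in the main fit neither it nor NRPD7, AT2G18180 or any other of the 15 strongest named members passed.

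Among the measures that the choice did not use, the DEX effect in the bZIP1 arm without CHX gave the most calls. There 13 of the 97 (13.4%) fell with DEX and 0 rose, against 2.45% of all probe sets that fell and 1.84% that rose (limma, adjusted p under 0.05). Of these 13, 11 were among the 34 members at 4 or more without CHX, which is 32.4% of them, against 5.01% of the 8351 probe sets at that level. Their DEX effects ran between -2.28 and -0.25 with a median of -1.15. With bZIP1 and CHX, where 2.97% of all probe sets fell and 3.19% rose, 0 members passed. The choice favours this, since it kept only small DEX effects in that arm. In the empty-vector arm the DEX effects of the 13 ran between -0.06 and 0.38. A total of 11 members were separated on single arrays, with every DEX array below every array without DEX (2.0% of all probe sets). The mirror set raised by N gave 11 that fell and 3 that rose with DEX of 61, so the fall with DEX was not confined to members.

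AT5G66390 (PRX72), a peroxidase linked to lignin in cell walls, had the lowest adjusted p of the 13. It read 5.99, 6.56 and 6.84 with N and DEX and 6.79, 7.42 and 7.22 with KCl and DEX, against 7.84, 8.18 and 8.06 with N alone and 8.68, 8.79 and 8.78 with KCl alone. Every DEX array lay below every array without DEX. The DEX effect was -1.59 ± 0.16 (limma adjusted p = 0.00106), with -1.56 in N and -1.61 in KCl, and it was -0.07 ± 0.09 with bZIP1 and CHX and 0.09 ± 0.18 with the empty vector. Without treatment replicate 1, 2 or 3 its adjusted p was 0.0176, 0.0764 or 0.0774.

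AT1G30750 differed in shape. Without CHX it read 2.68, 2.94 and 3.23 with N and DEX and 3.23, 3.03 and 3.79 with KCl and DEX, against 3.20, 3.28 and 3.89 with N alone and 5.02, 5.04 and 5.34 with KCl alone. The 3 arrays with neither N nor DEX stood above the other 9. Its DEX effect was -1.15 ± 0.18 (adjusted p = 0.009), being -0.51 in N and -1.78 in KCl, and the interaction of N and DEX was 1.28 ± 0.36, which did not pass (adjusted p = 1.0). With CHX it read 5.59 to 6.41 on N arrays and 6.09 to 7.17 on KCl arrays with bZIP1.

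The other called members changed by less or are not named. AT1G76550, the alpha subunit of the pyrophosphate-dependent phosphofructokinase of glycolysis, read 4.49, 4.68 and 4.604 with N and DEX and 4.68, 4.99 and 4.45 with KCl and DEX, against 5.10, 5.25 and 5.23 with N alone and 5.78, 5.63 and 5.64 with KCl alone, which did not overlap. Its DEX effect was -0.79 ± 0.09 (adjusted p = 0.00168). That of CRT1b was -0.25 ± 0.05 (adjusted p = 0.0173), within the values given above. The lowest, -2.28 ± 0.31 (adjusted p = 0.0044), belonged to 266356_at, which read 4.33, 5.23 and 3.97 with N and DEX and 4.95, 5.32 and 6.45 with KCl and DEX, against 6.32, 6.996 and 6.996 with N alone and 7.80, 7.90 and 7.91 with KCl alone. AT5G58330, a chloroplast malate dehydrogenase named after its values were seen, had a DEX effect of -0.76 ± 0.19 with separated arrays, which did not pass (adjusted p = 0.07).

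All 13 had an N effect below 0 without CHX, and for 11 of the 13 the interaction was above 0, though no interaction passed. Of the 8351 probe sets at 4 or more without CHX, 4411 had an N effect below 0 and 4468 an interaction above 0. Such counts are not given over all 22746 probe sets, since a probe set at the floor on every array has no sign. The 4 named among the 13 were AT5G66390, AT1G30750, AT1G76550 and CRT1b. The count of 13 depended on replication: 1 of the 13 was still called without treatment replicate 1, 6 without replicate 2 and 3 without replicate 3. Over all probe sets, the 557 that fell became 107, 162 and 90 in the same order. The endodermal marker AT1G61590 also fell with DEX without CHX, by 0.69 (adjusted p = 0.000446), and the summed linear level of the 2 measured endodermal genes of 11 listed was 742 to 858 with DEX and 1090 to 1320 without. The part of cell type makeup in the members' DEX effects was not tested.

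**Figure D4:**
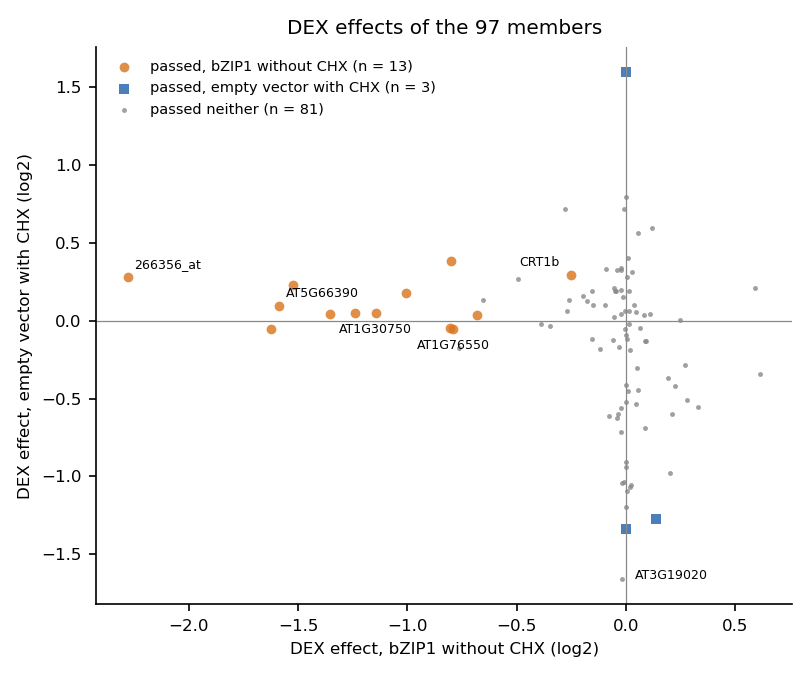
DEX effect (DEX minus no DEX, log2) of each of the 97 members in the bZIP1 arm without CHX (horizontal axis) and in the empty-vector arm with CHX (vertical axis). Orange circles passed the limma test without CHX (13 members) and blue squares in the empty vector (3 members). The orange points lie between -2.28 and -0.25 on the horizontal axis and between -0.06 and 0.38 on the vertical one. Members at or near the floor without CHX have little room to fall on the horizontal axis.

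In the empty-vector arm, which lacks the GR::bZIP1 fusion, 2 of the 97 members fell with DEX and 1 rose, against 0.431% of all probe sets that fell and 0.615% that rose. Of the 9430 probe sets with a mean of at least 4 over both CHX arms, 1.01% fell and 1.24% rose. The 3 members called are not named, and all were among the 63 under 4 without CHX (3.17% fell and 1.59% rose). Of the 1079 probe sets of the 9430 at that low level, 1.85% fell and 1.76% rose, so the calls were near that share. 255937_at read 9.47, 9.77 and 9.39 with N and DEX and 9.74 and 10.24 with KCl and DEX, against 10.77, 10.97 and 10.96 with N alone and 10.94, 11.23 and 11.36 with KCl alone. It was the 1 member with every DEX array below every array without DEX in this arm (0.681% of all probe sets). Its DEX effect was -1.27 ± 0.13 (limma adjusted p = 0.00596), and that of 265105_s_at was -1.34 ± 0.17 (adjusted p = 0.0141). 265572_at rose, by 1.60 ± 0.19 (adjusted p = 0.0113). The calls depended on replication: without treatment replicate 2, 0 members were called, and the 238 calls over all probe sets became 8. Leaving out replicate 1 or 3 left a single array for KCl with DEX, so only effects are given for these fits. They were -1.22 and -1.30 for 255937_at, -1.39 and -1.39 for 265105_s_at, and 1.91 and 1.41 for 265572_at.

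The DEX effect in the empty vector was at or under -0.5 for 23 members, of which 21 did not pass (1.23% of all probe sets were at or under -0.5), and at or over 0.5 for 6, of which 5 did not pass (1.12% of all probe sets were at or over 0.5). Of the 23, 20 averaged under 4 without CHX. AT3G19020 read 7.64, 7.997 and 8.10 with N and DEX and 8.47 and 8.98 with KCl and DEX, against 8.76, 9.85 and 10.21 with N alone and 9.76, 10.42 and 10.86 with KCl alone. Its DEX effect was -1.66 ± 0.32 (adjusted p = 0.0774), that of NRPD7 was -1.04 ± 0.19 (adjusted p = 0.0678) and that of AT2G18180 was -1.04 ± 0.31 (adjusted p = 0.324). At an unadjusted p under 0.05, 22 members were lower and 9 higher with DEX, where 3.85% of all probe sets were lower and 3.59% higher.

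The N effect of members was not shown to depend on DEX or on the preparation. The limma test of the interaction of N and DEX called 0 members in each of the 3 arms. All probe sets gave 0 calls in the bZIP1 arm with CHX, 0 in that without CHX, and 4 lower and 4 higher (0.0176% each) in the empty vector. At an unadjusted p under 0.05 the interaction was below 0 for 0 members and above 0 for 1 with bZIP1 and CHX, for 0 and 3 without CHX, and for 5 and 1 with the empty vector. The shares of all probe sets below and above 0 were 1.38% and 1.06% with bZIP1 and CHX. They were 1.27% and 1.41% without CHX, and 1.7% and 1.52% with the empty vector. The difference in N effect between the Bioreps called 0 members, where 0.00879% of all probe sets were lower and 0.0044% higher. At an unadjusted p under 0.05 this difference was below 0 for 1 member and above 0 for 5, against 1.6% and 2.47% of all probe sets.

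Pathway lists put the members in context. Of the 60 listed class III peroxidases, enzymes that build and loosen cell walls, 43 had a probe set. In the bZIP1 arm with CHX 7 of these fell with N and 0 rose (AT1G68850 by 1.18, adjusted p = 0.000556, and AT1G14550 by 0.60, adjusted p = 0.00557, for example), but AT5G66390 was the 1 member. Over all probe sets 1.16% fell and 0.862% rose. The median N effect of the 43 was -0.001 beside 0.0 over all probe sets, but many of the 43 read near the floor, where no effect can show. Without CHX, AT5G64120 fell with N by 0.81 (limma adjusted p = 0.0368). With DEX 8 fell and 4 rose there, against 2.45% and 1.84% of all probe sets.

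Of 27 nitrate-induced genes, 5 had a probe set. With bZIP1 and CHX 4 of them rose with N, where 0.862% of all probe sets rose. The median N effect of the 5 was 0.57, and AT1G68670, a regulator of nitrate and phosphate responses, rose by 0.57 (limma adjusted p = 0.000152). In the empty vector 1 rose, where 0.101% of all probe sets rose, and without CHX 0 passed. Of 27 genes of starch synthesis and breakdown 6 had a probe set, and DPE1, an enzyme of starch breakdown, fell with N by 0.86 (adjusted p = 0.000451) in the bZIP1 arm with CHX. DPE1 averaged 9.35 with bZIP1 and CHX and 10.10 with the empty vector and CHX, against 3.24 with bZIP1 without CHX. No gene of these lists of nitrate-induced and starch genes is a member.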

How the data were processed

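The deposited table holds log2 expression values of 22810 probe sets on 47 arrays. The authors summarised the arrays with GCRMA, per the submitters' processing notes, and its version is not given in the sources used here. The log2 scale and the separate summarisation of the arms were read from the values. Labelled cDNA came from amplified RNA, per the labels' protocols. The 64 control probe sets were left out.

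The labels gave each array's vector, CHX, N and DEX state, which made the 12 groups. Effects are differences of group means within an arm, and were tested two-sided with lmFit and eBayes of limma 3.58.1 (R 4.3.3). P-values were adjusted over 22746 probe sets by the method of Benjamini and Hochberg, with a threshold of 0.05. SE is that of the fit, with moderated variance. In all, 10 tests across probe sets were made. In the bZIP1 arm with CHX, Biorep entered as covariate: deviations from group means correlated above 0.1 for 108 of 108 array pairs that share a Biorep. With Biorep means removed, 18 of 36 pairs that share a Biorep and a treatment replicate number were above 0.1. For pairs that share a treatment replicate number, this held for 14 of 18 in the bZIP1 arm without CHX and 8 of 15 in the empty-vector arm. Because not all such pairs were above 0.1, replicates were not blocked in the main fits. In the bZIP1 arm without CHX the median correlation was 0.227, so some variation was shared there. The labels do not say that treatment replicates were separate cultures, so p-values measure the spread between these arrays, whose number limits the precision. The fitting was tested on simulated data.

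Names came from a table that matched 13436 probe sets to 1 gene of TAIR10.1. Genes were named by rule: the 15 named members with the lowest mean N effect, those that passed a test that the choice did not use, peroxidase members, the 3 members just inside the limits and the 3 probe sets just outside, and neighbouring members. Others named are marked in the text as picked after their values were seen. The members and the 20 gene lists (298 entries) were chosen with earlier results of these data known. Alternatives were a filter on low values, quantile normalization, limma with trend and robust, leaving out each treatment replicate, the replicate block, no Biorep covariate, means over treatment replicates, other limits of the choice and, added after seeing the data, single Bioreps in the tests of the bZIP1 arm with CHX.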

Additional observations from a re-analysis of the deposited data

Results flagged for a closer look

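In 2 of the 76 groups of 4 to 10 arrays examined for the named members, 1 array stood far from the others, where chance alone marks about 1 group in 20. AT5G66390 read 7.569 on the array of treatment replicate 3, Biorep 1, of the bZIP1 arm with CHX, KCl and DEX, and the nearest array of that group read 8.581. AT1G30750 read 5.588 on the array of treatment replicate 3, Biorep 1, of the bZIP1 arm with CHX and N without DEX, and the nearest array of that group read 6.101.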

How the results depend on the processing

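The 97 members became 199 at an N effect of at most -0.25 and 29 at -0.5, and 87 to 109 without 1 treatment replicate, of which 60 to 67 were among the 97 (61.9% to 69.1% of them). With Biorep 2 alone 56 of the 97 (57.7%) stayed members. Members called in the bZIP1 arm with CHX for N (46, a count that the choice favours) numbered 71 after a filter on low values. They numbered 9 with no Biorep covariate, 2 with means over treatment replicates, and 6 to 18 without 1 treatment replicate. With Biorep 1 fitted on its own there were 4, and with Biorep 2 there were 0. For DEX in that arm the 0 became 1 after the filter, 2 under the replicate block and 0 to 1 without 1 replicate. In the bZIP1 arm without CHX, the 1 call for N became 2 after the filter and 0 without any 1 replicate, and under the replicate block the 1 member called was AT1G30750 (adjusted p = 0.03), CRT1b having 0.058, while the 13 calls for DEX became 1 to 7 without 1 replicate and stayed at 13 under the block. In the empty vector, the 1 call for N became 11 after the filter, 7 under the replicate block and 0 without replicate 2. The 3 for DEX became 14, 8 and 0 under the same changes. Leaving out replicate 1 or 3 there left a single array for KCl with DEX, so those counts are not given. Over all probe sets in the empty vector, the block turned 37 calls for N into 69 and 8 for the interaction into 1. It changed no other total of calls, both directions together, by over 1.5 times. The interactions stayed at 0 members under the alternatives run. The causes of these changes were not tested. The 14 members at the floor on all 12 arrays without CHX cannot be called there, and 2 of the 13 calls for DEX were among the 63 members under 4.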
